A study of Mus musculus with 17 samples.

Results

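The chemokine receptor gene Cxcr2 and 6 chemokine genes of its ligand family (Cxcl1, Cxcl2, Cxcl3, Cxcl5, Cxcl15 and Ppbp) were followed through 2 doses and 2 time points after focal irradiation of the mouse lung. They were taken by their symbols from a count table of 45777 genes, and all 7 passed the filter on low counts that kept 22052 genes. The study compared 65 Gy with 75 Gy as single doses for a small-animal model of radiation-induced lung injury, in which the 2-week lung stands for an inflammatory stage and the 6-week lung for a fibrotic one. The 17 libraries came from male wild-type C57BL/6 mice that arrived at 6 weeks of age and were acclimatised for 1 week, and no group carries a further allele or agent. In the irradiated groups the left lung received one focal dose of 65 Gy or 75 Gy, and the control groups were not irradiated. RNA of the irradiated groups came from the lesion, so the comparison sets lesion tissue against non-irradiated lung tissue. There were 3 libraries for each dose and time except for 65 Gy at 6 weeks, which has 2. Nothing in the labels says that libraries of a group came from separate mice, so p-values measure the spread between these libraries, which may be technical.

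Neutrophils are drawn out of the blood by CXC chemokines that carry the tripeptide ELR (glutamate, leucine, arginine) just before the CXC cysteine motif. In mice these chemokines act mainly through CXCR2, a G protein-coupled receptor that is abundant on mature neutrophils and internalises after it binds ligand. CXCL1, CXCL2 and CXCL3 are made by macrophages, endothelium and other cells during inflammation, CXCL5 mainly by lung epithelium and platelets, and Ppbp encodes the platelet alpha-granule protein that is cut into CXCL7. Cxcl15 encodes lungkine, which is made by lung epithelium.

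The 6 ligand genes lie on the plus strand of one stretch of chromosome 5, in the order Cxcl5 (chr5:90759298-90761625), Ppbp (chr5:90768518-90770063), Cxcl3 (chr5:90786101-90788093), Cxcl15 (chr5:90794534-90803067), Cxcl1 (chr5:90891245-90893121) and Cxcl2 (chr5:90903899-90905938). Pf4, a platelet chemokine without the ELR motif, sits between Ppbp and Cxcl3 at chr5:90772435-90773383. Cxcr2 is on the plus strand at chr1:74153994-74161246, beside Cxcr1 on the minus strand at chr1:74191785-74194708. All places are those of GRCm38.p6. The coding stretch around the ELR motif is shown because it is what makes these genes one family. Each line holds 36 bases of exon 2, 5′ to 3′ on the plus strand of GRCm38, and the capitals mark the codons of the 3 residues before CXC and of CXC itself. All 6 ligands of the set have the ELR codons, whereas the neighbouring Pf4, shown for contrast, does not.
Cxcl1, chr5:90891478-90891513: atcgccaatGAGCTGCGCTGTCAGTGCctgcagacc
Cxcl2, chr5:90904124-90904159: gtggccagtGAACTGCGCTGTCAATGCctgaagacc
Cxcl3, chr5:90786350-90786385: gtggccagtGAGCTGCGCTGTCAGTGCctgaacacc
Cxcl5, chr5:90759709-90759744: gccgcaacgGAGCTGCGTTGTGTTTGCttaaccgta
Cxcl15, chr5:90795210-90795245: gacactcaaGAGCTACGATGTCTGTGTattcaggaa
Ppbp, chr5:90769067-90769102: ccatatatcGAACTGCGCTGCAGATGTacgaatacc
Pf4, chr5:90772926-90772961: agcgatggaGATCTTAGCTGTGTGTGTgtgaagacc

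Cxcl2 and Cxcl3 are close copies of each other, and 11 of the 1010 windows of 100 bases along the Cxcl2 transcript (1.09%) and 11 of 917 along Cxcl3 (1.2%) matched the other gene exactly. No window of Cxcl1, Cxcl5, Cxcl15, Ppbp or Cxcr2 matched another gene. A small part of the reads of Cxcl2 and Cxcl3 could therefore have been counted for either gene.

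The promoters of Cxcl1, Cxcl2 and Cxcl3 are shown because these 3 genes rose at 2 weeks after both doses and share a run of bases near their starts. They are the 100 bases before the start of each gene on the plus strand of GRCm38.p6 (RefSeq), and the capitals mark the longest run of bases that the 3 windows share, the 11 bases GGGAATTTCCC, which hold a form of the kB site bound by NF-kB. In the full promoter windows (from 250 bases before to 50 after the start), searched on both strands, the same 11 bases stood in 14 of 32851 promoters (0.0426%), these 3 included. The run was taken from these 3 genes, so its presence in them was fixed in advance. It begins 71 bases before the start of Cxcl1, 97 before Cxcl2 and 73 before Cxcl3. The run itself fits the wider NF-kB consensus, which 8.46% of promoters hold, so its overlap with that consensus is not a separate finding. The promoters of Cxcl15, Ppbp and Cxcr2 do not hold the run. Promoters were matched for 6 of the 7 genes, all but Cxcl5. A match is a description of the sequence, and binding was not measured.
Cxcl1, chr5:90891145-90891244: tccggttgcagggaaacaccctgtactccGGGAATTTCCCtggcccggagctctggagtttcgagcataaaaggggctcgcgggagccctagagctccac
Cxcl2, chr5:90903799-90903898: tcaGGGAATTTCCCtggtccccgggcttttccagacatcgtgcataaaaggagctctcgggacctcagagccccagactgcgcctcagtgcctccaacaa
Cxcl3, chr5:90786001-90786100: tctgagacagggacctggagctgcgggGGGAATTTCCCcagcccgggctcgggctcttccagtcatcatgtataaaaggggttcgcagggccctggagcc

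The libraries held between 46764569 and 66797879 counts on genes, with a median of 57608149. Levels are given as CPM (counts scaled to a common library size), with trimmed mean of M-values (TMM) factors. The quasi-likelihood test of edgeR compared the groups, and its p-values were adjusted (Benjamini-Hochberg) over the 22052 genes tested. "Called" means an adjusted p of 0.05 or less together with a log2 fold change (log2FC) of 1 or more in either direction. These are bulk libraries, in which fewer cells of a type and less RNA per cell cannot be told apart.

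Cxcl1, Cxcl3 and Cxcl5 rose and Cxcr2 fell after both doses at both times, and Cxcl2 rose in 3 of the 4 comparisons. At 2 weeks, 5 of the 7 genes were called after 65 Gy, against 4.35% of all genes tested, and 5 of 7 after 75 Gy, against 7.74%. In both comparisons 4 ligand genes (Cxcl1, Cxcl2, Cxcl3 and Cxcl5) rose, where 3.47% and 5.67% of all genes were called higher, and Cxcr2 fell, where 0.88% and 2.07% were called lower. At 6 weeks, 4 of 7 were called after 65 Gy, against 5.28%, and 5 of 7 after 75 Gy, against 10.4%. After 65 Gy Cxcl1, Cxcl3 and Cxcl5 rose, where 4.34% of all genes were called higher, and Cxcr2 fell, where 0.943% were called lower. After 75 Gy Cxcl2 rose with these 3 ligands, against 7.28%, and Cxcr2 fell, against 3.13%. Cxcl15 and Ppbp were called in none of the 4 comparisons. The median log2FC of the 7 genes was 1.71 and 1.79 at 2 weeks after 65 and 75 Gy and 0.83 and 1.22 at 6 weeks, whereas the median over all genes lay between -0.01 and 0.04. Both doses are set against the same control libraries at each time, so their comparisons share those controls.

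Separation of the groups was also counted library by library. At 2 weeks, 4 of the 7 genes had every 65 Gy library above every control, which 15.9% of all genes tested did, and 1 had every library below, against 13.5%. The same counts for 75 Gy were 4, against 15.5%, and 1, against 14.8%. At 6 weeks they were 4 higher, against 28.2%, and 2 lower, against 28.1%, for 65 Gy with its 2 libraries, and 5 higher, against 29.4%, and 2 lower, against 27.7%, for 75 Gy. The counts of genes lower in every library are near the shares of all genes at both doses and both times.

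**Figure D1:**
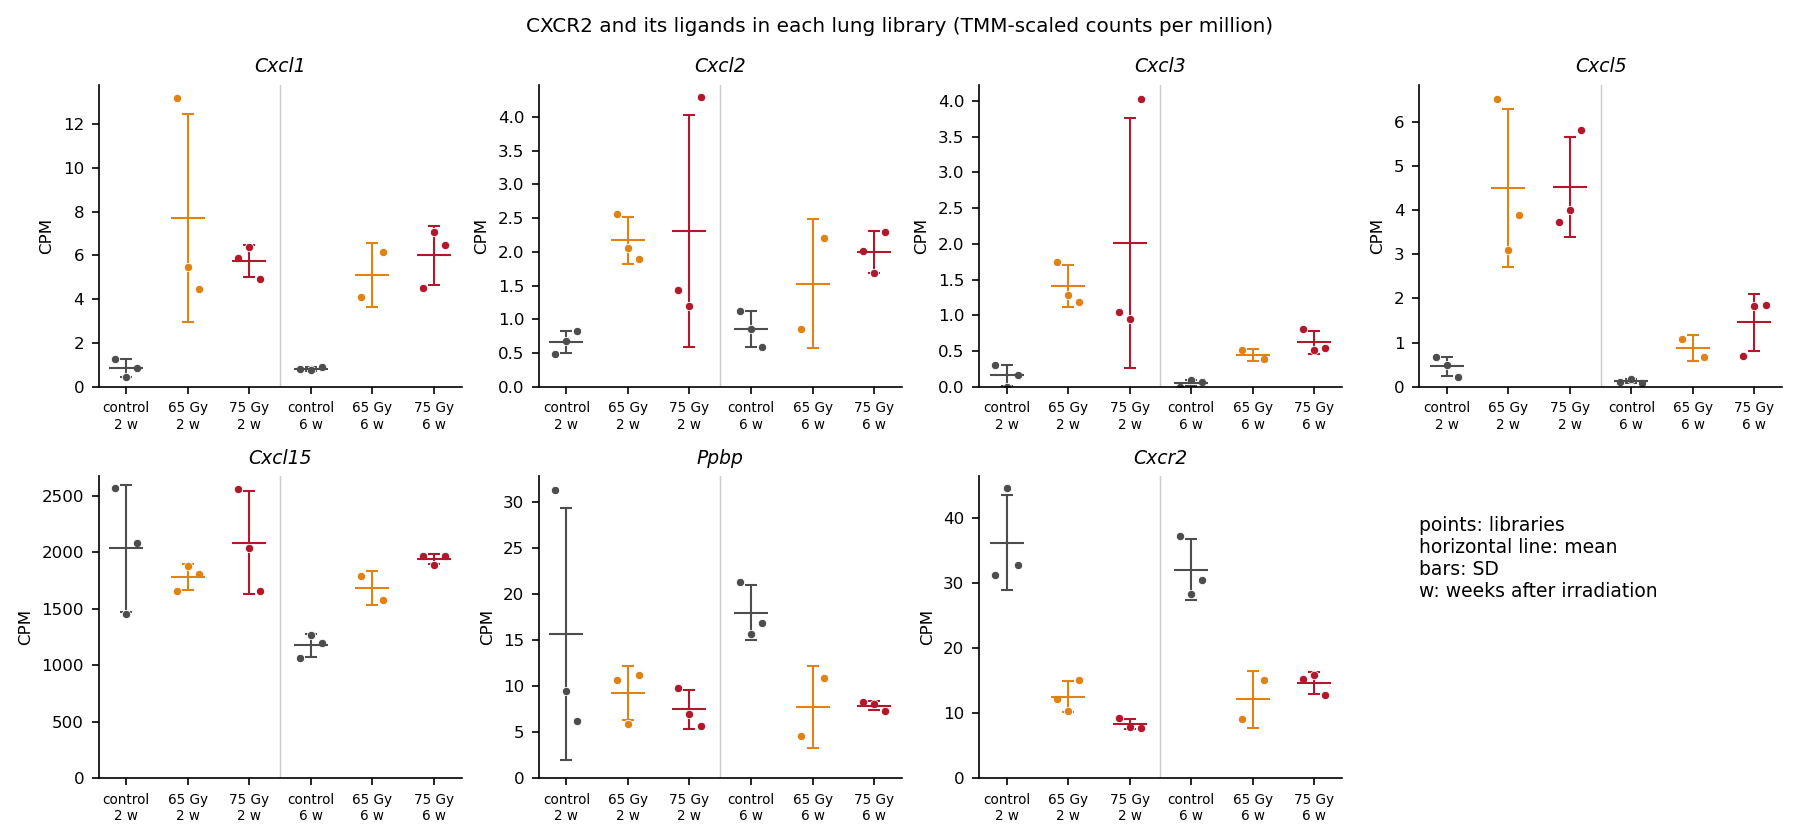
TMM-scaled CPM (vertical axes, linear from 0) of the 7 genes in each library by group, with the group mean as a horizontal line and SD bars. Every irradiated library is above the controls of its time for Cxcl1, Cxcl3 and Cxcl5 and below them for Cxcr2, while Cxcl15 and Ppbp overlap the controls at 2 weeks.

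**Figure D2:**
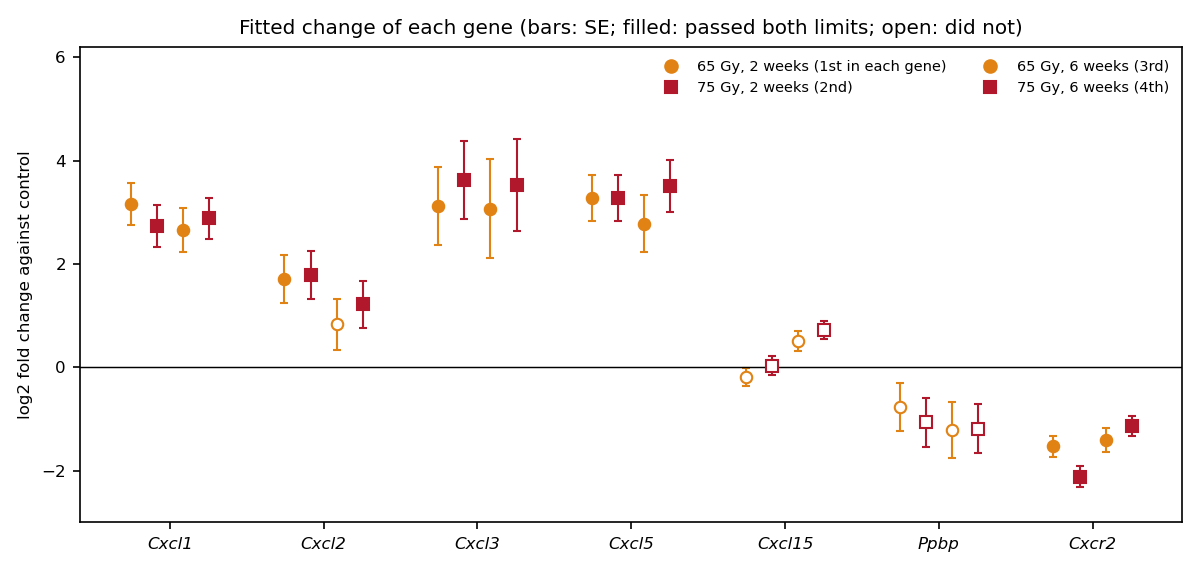
Fitted log2 fold change against the control of the same time (vertical axis) for each gene (horizontal axis), with SE bars; circles are 65 Gy and squares 75 Gy, the 2-week pair first, and filled symbols passed both limits. Cxcl1, Cxcl3 and Cxcl5 lie between 2.66 and 3.62, Cxcl2 lies between 0.83 and 1.79, and Cxcr2 lies between -2.12 and -1.13.

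Cxcr2 was the only receptor in the set, and its RNA fell in every irradiated group. In the 2-week controls it stood at 31.2, 44.6 and 32.7 CPM, and after 65 Gy at 12.2, 10.4 and 15.1 CPM. After 75 Gy at 2 weeks it stood at 9.23, 7.94 and 7.79 CPM, below all 65 Gy libraries of that time. All 6 irradiated libraries of 2 weeks were thus under the lowest control. The log2FC was -1.53 (SE 0.20, edgeR adjusted p = 0.000236) for 65 Gy, a 2.88-fold lower level, and -2.12 (SE 0.20, edgeR adjusted p = 9.5e-06) for 75 Gy, a 4.35-fold lower level. At 6 weeks the controls held 37.3, 28.3 and 30.5 CPM, the 65 Gy libraries 9.05 and 15.2 CPM, and the 75 Gy libraries 15.3, 15.9 and 12.7 CPM. Again no irradiated library reached a control. The log2FC was -1.40 (SE 0.23, edgeR adjusted p = 0.00122) for 65 Gy and -1.13 (SE 0.20, edgeR adjusted p = 0.000591) for 75 Gy. These calls were kept with each library left out in turn and under each of the 7 other settings.

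The mean level of Cxcr2 was highest in the 2-week controls (36.2 ± 7.31 CPM, SD, n = 3), followed by the 6-week controls (32.0 ± 4.67, n = 3), and these differed by less than their spread (log2FC -0.18, SE 0.19). It was followed by 75 Gy at 6 weeks (14.6 ± 1.65, n = 3), 65 Gy at 2 weeks (12.6 ± 2.41, n = 3), 65 Gy at 6 weeks (12.1 ± 4.33, n = 2) and 75 Gy at 2 weeks (8.32 ± 0.791, n = 3). Neighbouring irradiated groups overlapped.

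The decrease of Cxcr2 ran alongside that of other genes of mature neutrophils. Of 16 neutrophil marker genes, all tested, 8 fell and 0 rose after 65 Gy at 2 weeks, and 8 fell and 1 rose after 75 Gy at 2 weeks. At 6 weeks, 2 fell and 1 rose after 65 Gy, and 3 fell and 3 rose after 75 Gy. Of all genes tested, 0.88%, 2.07%, 0.943% and 3.13% fell and 3.47%, 5.67%, 4.34% and 7.28% rose in these 4 comparisons, and the 1 of 16 that rose at 2 weeks is near that share. The median log2FC of the list was -1.25, -1.10, -0.86 and -0.72 in these 4 comparisons. The summed level of the list lay between 592.97 and 946.87 CPM in the controls, between 318 and 430 CPM in the irradiated libraries of 2 weeks and between 364 and 645 CPM in those of 6 weeks, and none of the 16 genes was at 0 in every library of a group. The count of 8 after 65 Gy at 2 weeks became 3 without the 65 Gy library 3129 and 5 without the control library 3127. The count of 2 after 65 Gy at 6 weeks became 0 without library 3138 and 6 without library 3140, and the gene that rose after 75 Gy at 2 weeks, Cd177, was not called without library 3134 or the control library 3128, nor with only the groups compared in the fit, and 2 rose without the control library 3126. The part of neutrophil number in the level of Cxcr2 was not tested.

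Members of the neutrophil list did not move as one. Mmp9, a gelatinase stored in neutrophil granules, fell in all 4 comparisons with log2FC of -1.79 (SE 0.30), -2.36 (SE 0.31), -1.74 (SE 0.35) and -1.68 (SE 0.30) in the order 65 and 75 Gy at 2 weeks and 65 and 75 Gy at 6 weeks. Csf3r, the receptor for granulocyte colony-stimulating factor, also fell in all 4, by 1.14, 1.38, 1.40 and 1.47 on the log2 scale. S100a8 and S100a9, which encode the 2 subunits of calprotectin, fell at 2 weeks and were not called at 6 weeks. S100a8 had log2FC of -2.10 and -2.06 at 2 weeks, and -1.34 (edgeR adjusted p = 0.10) and -0.86 (edgeR adjusted p = 0.15) at 6 weeks. Cd177, a neutrophil surface glycoprotein, went the other way, with log2FC of 0.75 (not called), 1.58, 2.47 and 3.33 in the same order. Hdc, which encodes histidine decarboxylase and is expressed by mast cells and basophils too, rose after 75 Gy at 6 weeks (log2FC 1.03, SE 0.15), with 0.98 without library 3143, and Clec4d, a myeloid lectin receptor, rose there too (log2FC 1.25, SE 0.34). Among 10 genes of neutrophil precursors, of which 9 were tested, only Lcn2 rose, with log2FC between 2.79 and 3.12 in the 4 comparisons, where 3.47%, 5.67%, 4.34% and 7.28% of all genes rose. Lcn2 encodes lipocalin 2, which epithelium and macrophages also make. Ngp and Camp, genes of neutrophil secondary granules, fell after 75 Gy at 6 weeks (log2FC -4.53, SE 1.11, and -4.88, SE 1.51), although neither was called without the control library 3135 and Camp also not without library 3141 or 3143, and 0 of the 9 fell in the other 3 comparisons. Without the control library 3135, 1 of the 9 fell after each dose at 2 weeks. Of all genes, 0.88%, 2.07%, 0.943% and 3.13% fell in the 4 comparisons.

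**Figure D3:**
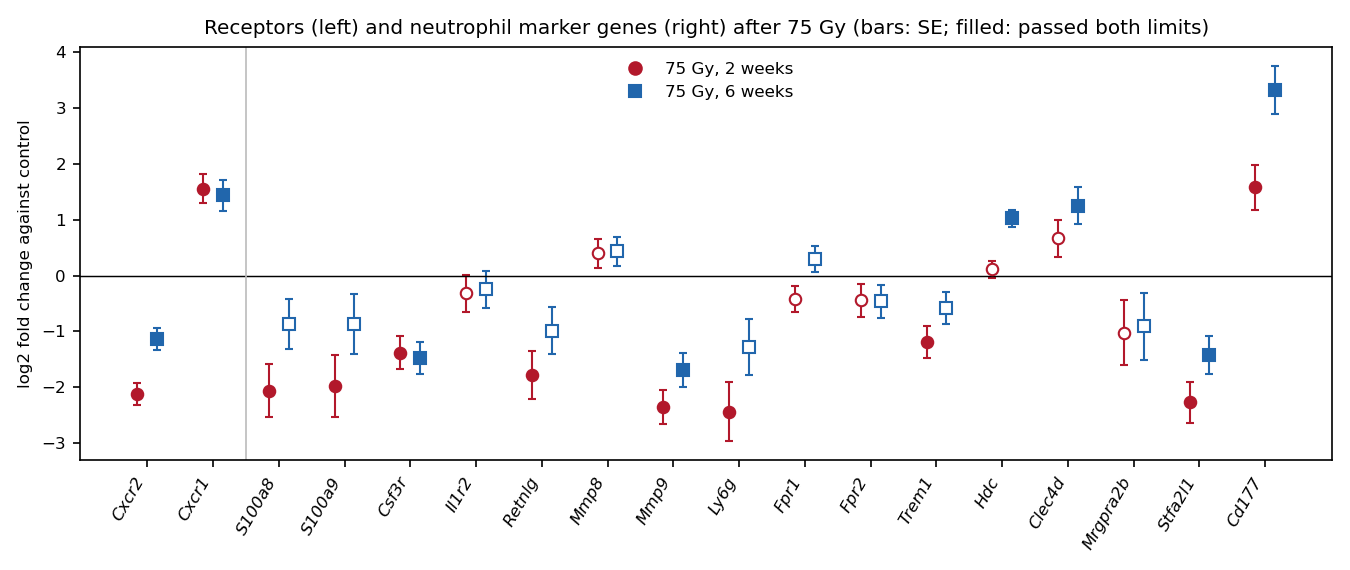
Fitted log2 fold change after 75 Gy against control (vertical axis, SE bars) of Cxcr2 and Cxcr1 (left of the line) and of the 16 neutrophil marker genes (right), at 2 weeks (circles) and 6 weeks (squares); filled symbols passed both limits. Cxcr1 lies above 0 and Cxcr2 below it at both times, and 8 marker genes fell at 2 weeks against 3 at 6 weeks.

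Cxcr1 encodes the other receptor for ELR chemokines and lies next to Cxcr2 on chromosome 1. It moved in the opposite direction. At 2 weeks Cxcr1 stood at 1.32, 0.685 and 1.33 CPM in the controls, at 1.97, 3.03 and 2.62 CPM after 65 Gy and at 3.17, 3.86 and 2.85 CPM after 75 Gy. By 6 weeks it stood at 1.01, 0.571 and 0.698 CPM in the controls, 2.21 and 1.86 CPM after 65 Gy and 2.05, 1.86 and 2.28 CPM after 75 Gy. No irradiated library overlapped the controls of its time at either dose. The log2FC of Cxcr1 was 1.18 (SE 0.27, edgeR adjusted p = 0.0109) and 1.56 (SE 0.27, edgeR adjusted p = 0.000934) after 65 and 75 Gy at 2 weeks, and 1.42 (SE 0.29, edgeR adjusted p = 0.00596) and 1.44 (SE 0.27, edgeR adjusted p = 0.00105) at 6 weeks. The calls after 65 Gy were lost at 2 weeks without the control library 3127 (log2FC 0.93, edgeR adjusted p = 0.0444, under the fold limit) and at 6 weeks without library 3138 (edgeR adjusted p = 0.0661). Per kilobase of transcript, Cxcr2 was at 11.9 ± 2.40 CPM in the 2-week controls (n = 3) and Cxcr1 at 0.989 ± 0.33, whereas after 75 Gy at 2 weeks Cxcr2 was at 2.73 ± 0.26 and Cxcr1 at 2.93 ± 0.46, so that the 2 receptors overlapped there.

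Cxcr1 was part of a list of 16 other genes of the CXCR2 pathway (receptors, decoy receptors, signalling proteins and other ligands), all tested. In this list 1 gene rose after each dose at 2 weeks and 2 rose after each dose at 6 weeks, and none fell. Counts of 1 or 2 of 16 are near the shares of all genes that rose, 3.47% and 5.67% at 2 weeks and 4.34% and 7.28% at 6 weeks. The count after 75 Gy at 2 weeks was 3 without library 3132 or 3133 and 2 without the control library 3126 or 3128. The additional gene at 6 weeks was Ackr1, the atypical receptor that holds chemokines on venular endothelium and red cells. Ackr1 stood at 0.0973, 0 and 0.227 CPM in the 6-week controls, at 3.76 and 2.099 CPM after 65 Gy and at 3.13, 4.21 and 5.09 CPM after 75 Gy. Every irradiated library of 6 weeks was far above the controls, with log2FC of 4.73 (SE 0.81) and 5.23 (SE 0.78). At 2 weeks its log2FC was 0.75 and 1.83, and it was not called. The median log2FC of the list lay between 0.02 and 0.31 in the 4 comparisons.

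Cxcl1 (KC), a chief neutrophil attractant of the mouse, rose after both doses at both times. At 2 weeks it stood at 1.26, 0.471 and 0.839 CPM in the controls, 13.2, 5.45 and 4.49 CPM after 65 Gy and 5.88, 6.37 and 4.94 CPM after 75 Gy. At 6 weeks it stood at 0.795, 0.749 and 0.890 CPM in the controls, 4.09 and 6.16 CPM after 65 Gy and 4.49, 7.06 and 6.48 CPM after 75 Gy. Every irradiated library was above 4 CPM and every control below 1.3 CPM. The log2FC was 3.16 (SE 0.40, edgeR adjusted p = 0.000208) and 2.74 (SE 0.40, edgeR adjusted p = 0.000311) for 65 and 75 Gy at 2 weeks, and 2.66 (SE 0.42, edgeR adjusted p = 0.00101) and 2.89 (SE 0.40, edgeR adjusted p = 0.000116) at 6 weeks. The highest value was in the 65 Gy library 3129, and without it the log2FC was 2.53. Unlike Cxcl5, Cxcl1 was about as high at 6 weeks as at 2 weeks: the means of the irradiated groups, from 7.70 ± 4.76 CPM (65 Gy at 2 weeks, n = 3) through 6.01 ± 1.35 (75 Gy at 6 weeks, n = 3) and 5.73 ± 0.726 (75 Gy at 2 weeks, n = 3) to 5.13 ± 1.47 (65 Gy at 6 weeks, n = 2), overlapped within their SD.

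Cxcl5 (LIX) rose as much in fold change, from a level that differed between the times. At 2 weeks it stood at 0.670, 0.492 and 0.229 CPM in the controls, 6.52, 3.09 and 3.88 CPM after 65 Gy and 3.73, 4.01 and 5.82 CPM after 75 Gy. By 6 weeks it stood at 0.114, 0.178 and 0.0873 CPM in the controls, 1.09 and 0.666 CPM after 65 Gy and 0.705, 1.82 and 1.84 CPM after 75 Gy. The irradiated libraries were above the controls of the same time without overlap, but the 6-week irradiated libraries were all below the 2-week irradiated ones. The log2FC was 3.28 (SE 0.45, edgeR adjusted p = 0.000314) and 3.28 (SE 0.45, edgeR adjusted p = 0.000175) at 2 weeks, and 2.78 (SE 0.55, edgeR adjusted p = 0.00441) and 3.51 (SE 0.51, edgeR adjusted p = 0.000164) at 6 weeks. The call after 65 Gy at 6 weeks was lost without library 3138 (edgeR adjusted p = 0.0597). Between the controls, Cxcl5 was lower at 6 weeks with a log2FC of -1.86 (SE 0.54) that did not pass (edgeR adjusted p = 0.112), and it did pass with DESeq2 (adjusted p = 0.0147) and with edgeR's exact test (adjusted p = 0.0281). The means ran from 4.52 ± 1.14 CPM (75 Gy at 2 weeks, SD, n = 3) and 4.50 ± 1.80 (65 Gy at 2 weeks, n = 3), which overlapped, through 1.46 ± 0.651 (75 Gy at 6 weeks, n = 3) and 0.877 ± 0.299 (65 Gy at 6 weeks, n = 2), which overlapped too, to 0.464 ± 0.222 in the 2-week controls (n = 3), which reached the lower 65 Gy library of 6 weeks, and 0.126 ± 0.0468 in the 6-week controls (n = 3). The change in the effect of 75 Gy between the times was 0.22 on the log2 scale (SE 0.64).

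Cxcl2 (MIP-2), an early product of macrophages, rose less and with more spread. At 2 weeks it stood at 0.487, 0.685 and 0.820 CPM in the controls, 2.57, 2.06 and 1.89 CPM after 65 Gy and 1.44, 1.20 and 4.29 CPM after 75 Gy. In the 6-week libraries it stood at 1.12, 0.856 and 0.593 CPM in the controls, 0.858 and 2.20 CPM after 65 Gy and 2.02, 1.68 and 2.30 CPM after 75 Gy. The 65 Gy library 3138 of 6 weeks lay within the controls, and the other irradiated libraries were above the controls of their time. The log2FC was 1.71 (SE 0.46, edgeR adjusted p = 0.0283) and 1.79 (SE 0.46, edgeR adjusted p = 0.0119) at 2 weeks, and 0.83 (SE 0.49, edgeR adjusted p = 0.283) and 1.22 (SE 0.45, edgeR adjusted p = 0.0456) at 6 weeks. The means ran from 2.31 ± 1.72 CPM (75 Gy at 2 weeks, SD, n = 3), 2.17 ± 0.353 (65 Gy at 2 weeks, n = 3), 2.00 ± 0.310 (75 Gy at 6 weeks, n = 3) and 1.53 ± 0.951 (65 Gy at 6 weeks, n = 2), neighbours of which all overlapped, to 0.856 ± 0.263 and 0.664 ± 0.167 in the 6-week and 2-week controls (n = 3 each), which overlapped as well. Its calls depended on single libraries: the call after 75 Gy at 2 weeks was lost without library 3134 (log2FC 0.98, edgeR adjusted p = 0.0891), the call after 65 Gy at 2 weeks was kept in 11 of 17 fits without 1 library, and the call after 75 Gy at 6 weeks in 6 of 17.

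Cxcl3 (DCIP-1) was close to absent from the controls and present after irradiation. At 2 weeks it stood at 0.304, 0 and 0.172 CPM in the controls, 1.74, 1.28 and 1.19 CPM after 65 Gy and 1.05, 0.946 and 4.03 CPM after 75 Gy. In the 6-week libraries it stood at 0, 0.0891 and 0.0698 CPM in the controls, 0.511 and 0.393 CPM after 65 Gy and 0.804, 0.513 and 0.548 CPM after 75 Gy. In counts, the 3 control libraries of 2 weeks held 24 in all and those of 6 weeks 9, against 256 and 353 after 65 and 75 Gy at 2 weeks and 54 and 108 at 6 weeks. The groups did not overlap at either time. The log2FC was 3.12 (SE 0.75, edgeR adjusted p = 0.0161) and 3.62 (SE 0.75, edgeR adjusted p = 0.0033) at 2 weeks, and 3.07 (SE 0.96, edgeR adjusted p = 0.0439) and 3.53 (SE 0.89, edgeR adjusted p = 0.00651) at 6 weeks. The means ran from 2.01 ± 1.75 CPM (75 Gy at 2 weeks, SD, n = 3) and 1.41 ± 0.295 (65 Gy at 2 weeks, n = 3), which overlapped, through 0.622 ± 0.159 (75 Gy at 6 weeks, n = 3) and 0.452 ± 0.0839 (65 Gy at 6 weeks, n = 2), which differed by less than the sum of their SDs, to 0.159 ± 0.153 and 0.0530 ± 0.0469 in the 2-week and 6-week controls (n = 3 each). With counts this low the fold change has a wide error, and the call after 65 Gy at 6 weeks was kept in 5 of 17 fits without 1 library. Library 3134 held the highest value of both Cxcl3 and its close copy Cxcl2, and without it the log2FC of Cxcl3 after 75 Gy at 2 weeks was 2.62.

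Compared per kilobase of transcript in the 75 Gy libraries, Cxcl1 had the highest mean and Cxcl3 the lowest of the 4 inducible ligands at both times, while Cxcl5 and Cxcl2 changed places. At 2 weeks the levels were 6.01 ± 0.762 CPM per kilobase for Cxcl1, 2.87 ± 0.721 for Cxcl5, 2.08 ± 1.55 for Cxcl2 and 1.98 ± 1.72 for Cxcl3 (SD, n = 3), where the last 3 overlapped. At 6 weeks they were 6.31 ± 1.41 for Cxcl1, 1.80 ± 0.28 for Cxcl2, 0.925 ± 0.414 for Cxcl5 and 0.612 ± 0.156 for Cxcl3, where the last 2 overlapped.

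**Figure D4:**
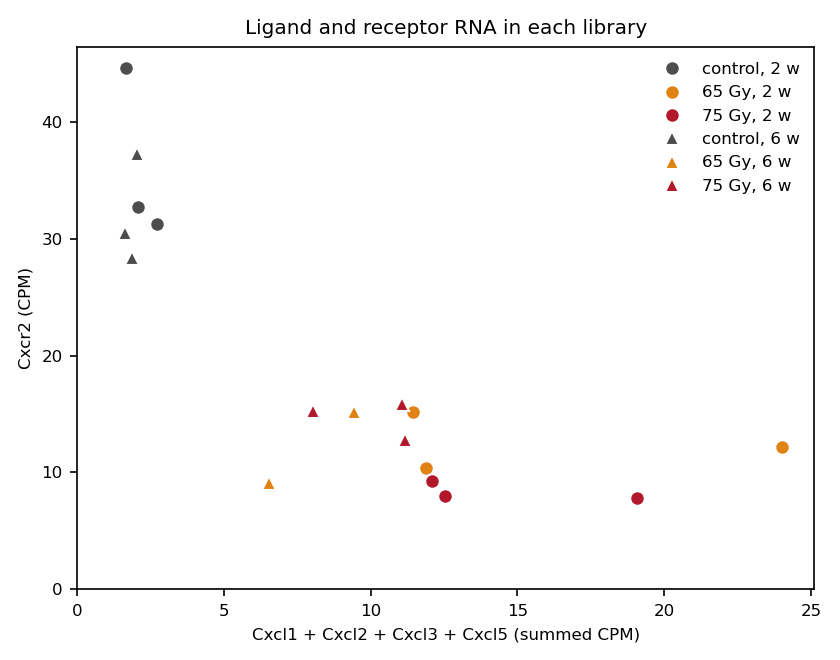
Summed TMM-scaled CPM of Cxcl1, Cxcl2, Cxcl3 and Cxcl5 (horizontal axis) against Cxcr2 CPM (vertical axis) in each of the 17 libraries, both axes linear from 0; circles are 2 weeks, triangles 6 weeks, and colours the dose. The 6 control libraries have ligand sums of at most 2.72 CPM with Cxcr2 of at least 28.3 CPM, and the 11 irradiated libraries have ligand sums of at least 6.55 CPM with Cxcr2 of at most 15.9 CPM.

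The summed level of Cxcl1, Cxcl2, Cxcl3 and Cxcl5 set the irradiated libraries apart from the controls, as Cxcr2 did, but in the opposite direction. It lay between 1.65 and 2.72 CPM in the 2-week controls and between 1.64 and 2.03 CPM in those of 6 weeks. After irradiation it lay between 11.5 and 24.0 CPM for 65 Gy and between 12.1 and 19.1 CPM for 75 Gy at 2 weeks. At 6 weeks it lay between 6.55 and 9.42 CPM for 65 Gy and between 8.02 and 11.2 CPM for 75 Gy. The plot of ligand sum against Cxcr2 shows 2 separate clusters, controls and irradiated libraries, so no correlation over all libraries is given as a relation.

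Genes known to induce these chemokines were examined as a list of 18, of which 15 were tested. After 65 Gy at 2 weeks 3 of them rose (Il6, Lif and Tnf), after 75 Gy at 2 weeks 5 (with Il1a and Csf2 in addition), after 65 Gy at 6 weeks 3 (Il6, Lif and Il1a) and after 75 Gy at 6 weeks 3 (Il6, Lif and Osm), and none fell. The shares of all genes that rose were 3.47%, 5.67%, 4.34% and 7.28%. Without library 3134, 1 of the 15, Il1b, fell after each dose at 2 weeks. Osm was lost without any 1 of the libraries 3136, 3137, 3142 and 3143. The count of 3 after 65 Gy at 6 weeks was 1 without the control library 3137. Tnf, an activator of NF-kB, had log2FC of 1.61 (SE 0.24) and 1.97 (SE 0.24) at 2 weeks, and 0.52 and 0.84 at 6 weeks, where it was not called. Lif, a cytokine of the interleukin 6 family, had log2FC of 2.23, 2.35, 3.10 and 3.16 in the order 65 and 75 Gy at 2 weeks and 65 and 75 Gy at 6 weeks. Il6 reached a log2FC of 3.70 (SE 0.56) after 75 Gy at 6 weeks. With all libraries Il1b, which encodes interleukin 1 beta, was not called in any of the 4 comparisons, with log2FC between -1.07 and 0.46. It stood at 89.3, 54.1 and 37.1 CPM in the 2-week controls and at 34.1, 26.5 and 25.2 CPM after 65 Gy. After 75 Gy at 2 weeks it stood at 20.5 and 23.4 CPM, and at 52.8 CPM in library 3134. Csf3, which encodes granulocyte colony-stimulating factor, was not called at levels of at most 0.229 CPM. Il17a, Il17f and Il17c were too low to be tested, and Il17a was at 0 in all 6 control libraries and at most at 0.296 CPM elsewhere.

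Many macrophage markers were higher after irradiation, as the inducible ligands were. Of 12 monocyte and macrophage markers, 6 and 7 rose after 65 and 75 Gy at 2 weeks and 9 and 8 at 6 weeks, and none fell, where 3.47%, 5.67%, 4.34% and 7.28% of all genes rose. The summed level of this list lay between 771 and 1477 CPM in the controls and between 1896 and 3596 CPM in the irradiated libraries, and no marker was at 0 in every library of a group. Its means after 65 and 75 Gy were 2013 ± 116 and 2549 ± 916 CPM at 2 weeks (SD, n = 3 each). At 6 weeks they were 2832 ± 426 (n = 2) and 2689 ± 129 (n = 3). Chil3 was a large part of this sum. After 65 Gy it stood at 363, 503 and 447 CPM at 2 weeks and at 1141 and 1704 at 6 weeks. After 75 Gy it stood at 504, 425 and 605 CPM at 2 weeks and at 1003, 1086 and 1229 at 6 weeks. Marco went the other way, from 104, 99.9 and 81.7 to 35.8 and 20.3 CPM after 65 Gy. After 75 Gy Marco went from 131, 97.1 and 98.0 to 12.9, 9.59 and 7.91 CPM. The course of the sum over time was therefore not that of each marker. The sum of Cxcl1, Cxcl2, Cxcl3 and Cxcl5 was lower at 6 weeks than at 2 weeks after each dose. Cd68, a lysosomal protein of macrophages, had log2FC between 2.14 and 2.48, and Gpnmb, a glycoprotein of lipid-laden macrophages, between 4.21 and 5.08. The part of macrophage number in the ligand levels was not tested.

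Cxcl15 was by far the most abundant gene of the set and followed another course. At 2 weeks it stood at 2571, 1449 and 2084 CPM in the controls, 1654, 1881 and 1809 CPM after 65 Gy and 2559.9, 2036 and 1657 CPM after 75 Gy. At 6 weeks it stood at 1067, 1270.1 and 1194 CPM in the controls, 1790.1 and 1576 CPM after 65 Gy and 1968, 1888 and 1967 CPM after 75 Gy. The groups overlapped at 2 weeks, and at 6 weeks every irradiated library was above every control. The log2FC was -0.19 (SE 0.18) and 0.03 (SE 0.18) at 2 weeks, and 0.52 (SE 0.20, edgeR adjusted p = 0.0937) and 0.72 (SE 0.18, edgeR adjusted p = 0.00611) at 6 weeks, the last of which is a 1.65-fold higher level and under the fold limit. The 6-week controls were themselves lower than the 2-week controls (log2FC -0.79, SE 0.18, edgeR adjusted p = 0.0397), also under the fold limit. The levels of 75 Gy at 6 weeks (1941 ± 45.8 CPM, SD, n = 3) and of the 2-week controls (2034 ± 563 CPM, n = 3) differed by less than the spread of the latter. The highest mean was that of 75 Gy at 2 weeks (2084 ± 454 CPM, n = 3), and 65 Gy at 2 weeks (1781 ± 116, n = 3) and 65 Gy at 6 weeks (1683 ± 151, n = 2) came next after these groups, with the 6-week controls lowest (1177 ± 102, n = 3). Neighbours in this order overlapped except for 75 Gy at 6 weeks with 65 Gy at 2 weeks, which were apart by a narrow gap, and 65 Gy at 6 weeks with the 6-week controls.

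Alveolar type 2 markers were read beside Cxcl15. Of 10 such genes 0 were called at either dose at 2 weeks, and Sftpd, which encodes surfactant protein D, rose at 6 weeks after both doses (log2FC 1.03, SE 0.28, and 1.13, SE 0.26), the first of these not without any 1 of libraries 3135, 3136, 3137, 3138 and 3140. Of all genes tested, 4.35% and 7.74% were called at 2 weeks and 4.34% and 7.28% rose at 6 weeks. A count of 1 of 10 is near the latter shares. Sftpc, which encodes surfactant protein C, was not called, with log2FC between -0.29 and 0.53. The summed level of the list lay between 23883 and 33517 CPM in the 2-week controls and between 19527 and 34149 CPM in the irradiated libraries of that time. At 6 weeks it lay between 22332 and 24679 CPM in the controls and between 26320.2 and 35022 CPM in the irradiated libraries, so that, as for Cxcl15, every irradiated library was above the controls. Sftpc was the largest part of this sum, and the list did not move as one. After 75 Gy at 6 weeks Sftpc, Sftpa1, Sftpd, Lamp3 and Napsa had every library above the controls. Etv5 had every library below them (262, 190 and 198 CPM against 276, 295 and 265). Sftpb, Slc34a2, Abca3 and Lyz1 overlapped the controls there. Of 10 airway secretory markers, 0 were called in 3 of the comparisons, against 4.35%, 7.74% and 5.28% of all genes, and Cyp2f2, a cytochrome P450 of club cells, fell after 75 Gy at 6 weeks (log2FC -1.24, SE 0.29), against 3.13%. After 75 Gy at 2 weeks 2 fell without library 3132 and 1 without library 3133, and 1 rose without the control library 3127. Scgb1a1, the secretoglobin of club cells, had log2FC between -0.84 and -0.54 and was not called. The summed level of the airway list lay between 17660 and 22807 CPM in the controls and between 7005 and 15815 CPM in the irradiated libraries, where no library reached the controls. Scgb1a1 was the largest part of this sum, and this list did not move as one either. The mucin gene Muc5b, for example, overlapped the controls at both times. The part of the epithelial cell composition in the level of Cxcl15 was not tested.

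Ppbp did not pass the test in any comparison, and its direction at 2 weeks rested on 1 control library. At 2 weeks it stood at 31.4, 9.49 and 6.18 CPM in the controls, 10.7, 5.85 and 11.2 CPM after 65 Gy and 9.79, 7.04 and 5.66 CPM after 75 Gy. The first of these controls, library 3126, was far above the others. The log2FC was -0.76 (SE 0.47) for 65 Gy and -1.06 (SE 0.47, edgeR adjusted p = 0.12) for 75 Gy, and without library 3126 it was 0.25 and -0.05. At 6 weeks it stood at 21.3, 15.7 and 16.9 CPM in the controls, 4.60 and 10.9 CPM after 65 Gy and 8.27, 8.05 and 7.34 CPM after 75 Gy, without overlap. The log2FC was -1.22 (SE 0.54, edgeR adjusted p = 0.147) and -1.19 (SE 0.47, edgeR adjusted p = 0.0609). The first of these was -1.95 without library 3140 and -0.71 without library 3138. With 1 library left out, Ppbp was called after 65 Gy at 6 weeks without the control library 3126, after 75 Gy at 6 weeks without 3126 or 3128, and after 75 Gy at 2 weeks without 3128. The means were highest in the controls, at 17.98 ± 2.96 CPM at 6 weeks and 15.7 ± 13.7 at 2 weeks (SD, n = 3 each), followed by 9.25 ± 2.96 (65 Gy at 2 weeks, n = 3), 7.89 ± 0.485 (75 Gy at 6 weeks, n = 3), 7.74 ± 4.43 (65 Gy at 6 weeks, n = 2) and 7.50 ± 2.101 (75 Gy at 2 weeks, n = 3), and every neighbouring pair overlapped. Fitted on the libraries of the 2 groups alone, the differences at 6 weeks passed after 65 Gy (edgeR adjusted p = 0.0413) and 75 Gy (edgeR adjusted p = 0.000281), and the latter also with edgeR's exact test (adjusted p = 0.036).

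Platelet genes were lower at 6 weeks as well. Of 12 platelet and megakaryocyte markers, 0 were called at 2 weeks, and 6 after 65 Gy and 10 after 75 Gy fell at 6 weeks, where 0.943% and 3.13% of all genes fell, the 6 becoming 0 without library 3138. After 75 Gy at 2 weeks 2 fell without the control library 3127 or 3128, and 1 fell without library 3132, whereas 1 rose after each dose without the control library 3126. Gp5, a subunit of the von Willebrand factor receptor, had log2FC of -1.16 (SE 0.30) and -1.87 (SE 0.27) at 6 weeks, and Tubb1, a platelet tubulin, -1.70 (SE 0.33) and -1.91 (SE 0.29). Pf4, the neighbour of Ppbp and like it an alpha-granule chemokine, was not among them, with log2FC of 0.11 (SE 0.26) and 0.68 (SE 0.23). The summed level of the list lay between 39.4 and 72.1 CPM in the 2-week controls and between 74.6 and 100.01 CPM in those of 6 weeks, and the median log2FC between these controls was 0.89, with none of the 12 genes called. In the irradiated libraries it lay between 37.1 and 56.4 CPM at 2 weeks and between 34.3 and 49.5 CPM at 6 weeks, so that the difference at 6 weeks went with higher controls of that time. The part of platelet number in the level of Ppbp was not tested.

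**Figure D5:**
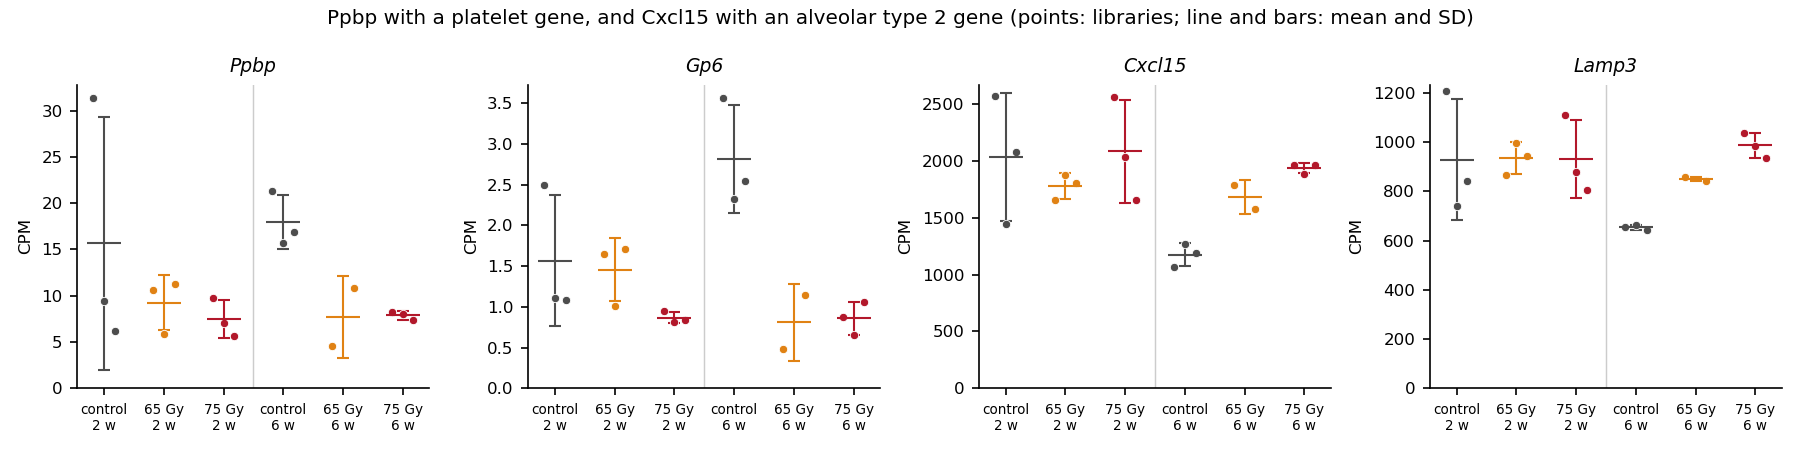
TMM-scaled CPM (vertical axes, linear from 0) of Ppbp, the platelet gene Gp6, Cxcl15 and the alveolar type 2 gene Lamp3 in each library by group, with mean and SD. At 6 weeks Ppbp and Gp6 are lower in every irradiated library than in the controls and Cxcl15 and Lamp3 are higher, while at 2 weeks the Ppbp, Cxcl15 and Lamp3 values overlap the controls.

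The 2 doses were compared directly. None of the 7 genes was called between 75 Gy and 65 Gy at 2 weeks or at 6 weeks with edgeR's quasi-likelihood test, its exact test or DESeq2, where 0% of all genes were called by the first in either comparison. At an unadjusted p under 0.05 there was 1 gene at 2 weeks and 0 at 6 weeks by each of these tools. The 1 gene was Cxcr2, and all of its 75 Gy libraries lay below the 65 Gy libraries at 2 weeks, as for 5.95% of all genes. Its log2FC was -0.59 (SE 0.20), which did not pass after adjustment over all genes (edgeR adjusted p = 0.693). For the ligands Cxcl1, Cxcl2, Cxcl3 and Cxcl5 the log2FC of 75 Gy against 65 Gy was -0.43 (SE 0.35), 0.08 (SE 0.43), 0.51 (SE 0.62) and 0.01 (SE 0.38) at 2 weeks. Each of these turned its sign without 1 library: Cxcl1 to 0.21 without library 3129, and Cxcl2 to -0.72, Cxcl3 to -0.50 and Cxcl5 to -0.22 without library 3134. At 6 weeks these were 0.23 (SE 0.40), 0.39 (SE 0.49), 0.46 (SE 0.76) and 0.73 (SE 0.47), and without library 3138 Cxcl1 was at -0.05 and Cxcl2 at -0.15. With errors of this size, equal levels at the 2 doses are not shown.

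The 2 times were compared through the control groups and through the effect of each dose. Between the controls none of the 7 genes was called, against 0.576% of all genes in either direction and 0.336% lower. Of the 7, 2 had an unadjusted p under 0.05 (Cxcl15 and Cxcl5), and DESeq2 and the exact test each called 1, Cxcl5. None was called for a change in the effect of 75 Gy between 2 and 6 weeks, against 0.254% of all genes (0.213% higher and 0.0408% lower), or in the effect of 65 Gy, against 0.0136%, by edgeR or DESeq2. At an unadjusted p under 0.05, 2 genes differed in the effect of 75 Gy and 1 in that of 65 Gy by edgeR. For Cxcr2 the effect of 75 Gy was weaker at 6 weeks by 0.99 on the log2 scale (SE 0.28, edgeR adjusted p = 0.146), whereas the effect of 65 Gy differed by 0.12 (SE 0.29, edgeR adjusted p = 0.927). With DESeq2 the change in the effect of 75 Gy on Cxcr2 had an adjusted p under 0.05. Its log2FC there, 0.98, was under the fold limit. For Cxcl15 the effects differed by 0.69 (SE 0.25, edgeR adjusted p = 0.222) for 75 Gy and 0.71 (SE 0.27, edgeR adjusted p = 0.528) for 65 Gy.

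For each of the 7 genes, the 3 genes most like it across the 17 libraries were taken by Pearson's r of log2 CPM. The values describe these libraries, which share the split between controls and irradiated lungs. Cxcr2 was most like Mmp9 (r = 0.974, Spearman's rho = 0.929), then Nlrp12, a neutrophil and dendritic cell gene (r = 0.970), and H2-Q10 (r = 0.967). Cxcl1 was most like Lcn2 (r = 0.970, rho = 0.821), Srxn1 (r = 0.958) and Gins2 (r = 0.952), and Cxcl5 most like Jpt2 (r = 0.968, rho = 0.963), Ifit1 (r = 0.967) and Cdca8 (r = 0.965). By rho, however, Lcn2, Srxn1 and Gins2 ranked only 165, 88.5 and 242.5 for likeness to Cxcl1. Cxcl2 was most like Mapk6 (r = 0.914, rho = 0.936), Mcpt2 and Selplg, and Cxcl3 most like C1rl (r = 0.955, rho = 0.956), Plau and Saa3. With a smaller count added before the log2 was taken, none of C1rl, Plau and Saa3 stayed among the 3 genes most like Cxcl3. Cxcl15 was most like Lamp3, a lamellar body gene of alveolar type 2 cells (r = 0.925, rho = 0.816), Msantd4 and Slc35f5. Ppbp was most like the platelet collagen receptor gene Gp6 (r = 0.881, rho = 0.863), Gm30286 and the platelet lipoxygenase gene Alox12 (r = 0.872). With the group means taken out, r remained at 0.885 for Cxcl15 with Lamp3, 0.871 for Ppbp with Gp6 and 0.858 for Cxcr2 with Mmp9, and was 0.748 for Cxcl1 with Lcn2. These pairs had been chosen for a high r in the same libraries.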

How the data were processed

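RNA of left lung tissue was sequenced from 17 libraries in 6 groups of dose and time. The authors made stranded mRNA libraries, cleaned paired-end reads with Trimmomatic, mapped these with HISAT2 on the GRCm38.p6 assembly and ran StringTie on the alignments; the step to whole numbers is not given in the sources used here. They deposited raw counts per gene, without normalization. Library totals lay between 46764569 and 66797879 counts, and p-values cover the spread between libraries. Libraries were grouped by their labels.

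All libraries were fitted together with edgeR 4.0.16 in R 4.3.3 (TMM factors, filterByExpr at min.count 10 and min.total.count 15, quasi-likelihood F test). The SE of a log2FC is its size divided by the square root of F. CPM per kilobase uses the longest coding transcript among those matched to a RefSeq mRNA of the gene. The alternatives used a filter of only 1 count, a filter of 10 counts per library throughout, RLE and upper-quartile factors, DESeq2 1.42.0, edgeR's exact test, only the groups compared, no fold limit and each library left out in turn. In simulated data with 200 of 22052 genes changed 4-fold in the comparison of 75 Gy with control at 6 weeks, the test recovered 191 with 2 false calls. The changed genes were drawn from those with a mean above 1 CPM. The recovery therefore does not describe genes as low as Cxcl3 or the 65 Gy group of 6 weeks with its 2 libraries.

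The members and the lists (other CXCR2 pathway genes, inducers, neutrophil, neutrophil precursor, platelet, alveolar type 2, airway secretory, macrophage and erythroid markers, other CXC chemokines, adhesion genes) were chosen with earlier results of these data known. Genes named are the members, at most 3 of each list with the smallest p after 75 Gy at that time, a few defining genes of the lists (S100a8, S100a9, Csf3r, Pf4, Sftpc, Scgb1a1, Cxcr1, Il17a, Il17f, Il1b, Tnf, Csf3) and the 3 genes most like each member. In addition, every alveolar type 2 marker was named for 75 Gy at 6 weeks. Il6 at 2 weeks, Csf2, Osm, Clec4d, Il17c, Ackr1 at 2 weeks, Cd177 at 2 weeks, the promoter run and the lists without 1 library were chosen after the values were seen. So were Chil3, Marco at 6 weeks and Muc5b at 2 weeks. Not analysed here were a further library of 65 Gy at 6 weeks, tissue sections and RT-qPCR.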

Additional observations from a re-analysis of the deposited data

How the results depend on the processing

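No paired analysis was possible because no library number occurs in more than 1 group. Requiring at least 10 counts in every library removed Cxcl3 and Cxcl5 from the test and left 3 of the genes called after 65 Gy and 3 after 75 Gy at 2 weeks, and 2 and 3 at 6 weeks. With only the groups compared in the fit, 3 were called after 75 Gy at 2 weeks, where Cxcl2 (edgeR adjusted p = 0.087) and Cxcl3 (edgeR adjusted p = 0.0637) were lost. Between the controls 1 was called with DESeq2, 1 with the exact test and 1 with no fold limit. With 1 library left out, the count called was 3 to 5 and 4 to 6 after 65 and 75 Gy at 2 weeks, 2 to 5 and 4 to 6 at 6 weeks, and 0 to 0 in the comparisons of doses, controls and effects. The 3 after 65 Gy at 2 weeks stood without library 3128 or 3129, and the 2 at 6 weeks without library 3138. The sign of small differences from the controls turned without 1 library. For Cxcl15 after 65 Gy at 2 weeks the log2FC ranged from -0.39 to 0.0156, the latter without the control library 3126, and after 75 Gy from -0.16 (without the control library 3127) to 0.25, and it was -0.15 without library 3132. For Ppbp after 65 Gy at 2 weeks it ranged from -1.14 to 0.25. No log2FC of the genes and comparisons reported turned its sign under the other alternatives. Of 226 single-gene values under those, 218 kept their side of the limits, 5 passed only there and 3 were lost only there. Cxcl3 in the controls is limited by depth, at 24 counts over the 2-week and 9 over the 6-week libraries.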

Other observations

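Other CXC chemokines, which lack the ELR motif or act through other receptors, rose with the CXCR2 ligands. Of 9 such genes, 5 and 6 rose after 65 and 75 Gy at 2 weeks, and 5 and 6 at 6 weeks, and none fell, where 3.47%, 5.67%, 4.34% and 7.28% of all genes tested rose. The first count was 3 without the control library 3128, and 1 fell in that comparison without library 3129. Cxcl9 and Cxcl10, the interferon-induced ligands of CXCR3, had log2FC of 6.63 (SE 0.72) and 5.11 (SE 0.55) after 75 Gy at 2 weeks and 5.39 (SE 0.68) and 3.84 (SE 0.53) at 6 weeks, with edgeR adjusted p between 2.8e-05 and 0.000114. Cxcl17, a mucosal chemokine, had 1.09 (SE 0.16) and 1.37 (SE 0.16). The sequence before CXC in Cxcl9 and Cxcl10 has no ELR codons.

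Among 16 genes of adhesion and of other neutrophil attractant receptors, of which 15 were tested, 2 and 3 rose after 65 and 75 Gy at 2 weeks, where 3.47% and 5.67% of all genes rose. At 6 weeks 1 rose after each dose, which is near the shares of all genes that rose there, 4.34% and 7.28%. After 75 Gy at 2 weeks 1 fell, against 2.07% of all genes, and 0 fell without library 3133 or the control library 3126. The 2 that rose after 65 Gy at 2 weeks became 1 in 14 of 17 fits without 1 library. The count that rose after 75 Gy at 6 weeks was 3 without library 3141 and 2 without the control library 3135, and that after 65 Gy at 6 weeks was 2 without library 3140. Itgb2, the beta 2 integrin chain of leukocytes, was called in all 4 comparisons with log2FC between 1.27 and 1.63. Selp, which encodes P-selectin of platelets and endothelium, rose after 75 Gy at 2 weeks (log2FC 1.02, SE 0.18, under the fold limit without library 3127 or 3132) and had 0.94 (SE 0.18) at 6 weeks. Of 7 erythroid markers 0 were called in 3 comparisons, against 4.35%, 7.74% and 5.28% of all genes, and Alas2 (log2FC -1.49, SE 0.35) and Slc4a1 (log2FC -3.56, SE 1.04) fell after 75 Gy at 6 weeks, against 3.13%. Slc4a1 was not called without library 3135, 3142 or 3143.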
